A study of Mus musculus with 4 samples.

Results

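The cells described here were those of 3 mouse gastrula libraries that held *Sox17* transcripts together with transcripts of *Foxa2* or *Cer1* and few transcripts of visceral endoderm genes, the combination by which definitive endoderm is usually recognised. A cell was selected on at least 1 UMI (a unique molecular identifier, which marks 1 captured transcript) of *Sox17*, at least 1 UMI of *Foxa2* or *Cer1*, and UMIs of fewer than 3 of the 5 visceral endoderm genes *Cubn*, *Apob*, *Dab2*, *Apom* and *Spink1*. By this rule 215 of 11123 cells were selected. There were 95 of 3635 cells at the mid to late streak stage (MS-LS), 80 of 3994 at the no bud to early bud stage (OB-EB) and 40 of 3494 at the early head fold stage (EHF). At EHF the rule took in 2 kinds of cell. Of the 40 cells, 18 carried UMIs of at least 8 of 12 parietal endoderm genes and no UMI of *Cer1*, which goes against the name definitive endoderm. Of the other 22, all held the keratin gene *Krt18*, 20 held *Cer1* and 18 held *Trh*. Of 20 foregut and anterior endoderm genes, 3 could be compared between these 22 cells and MS-LS, and only *Trh* was higher past 2-fold. The 22 and the 18 cells are therefore given separately.

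Definitive endoderm arises during gastrulation, when epiblast cells pass through the anterior primitive streak under Nodal signalling and insert into the outer layer of the embryo, where they spread among the visceral endoderm cells that surrounded the epiblast before. It forms the gut tube, and its most anterior part becomes the foregut, which underlies the forming heart and secretes antagonists of Wnt, BMP and Nodal signals. *Sox17* and *Foxa2* encode transcription factors required in this tissue, and *Cer1* encodes a secreted antagonist of Nodal and BMP. None of these genes is restricted to definitive endoderm. *Sox17* is also transcribed in visceral and parietal endoderm and in endothelium, *Foxa2* in the node, notochord and visceral endoderm, and *Cer1* in the anterior visceral endoderm. Parietal endoderm is the extraembryonic layer that lies apart from the embryo on the inside of the trophoblast and lays down the laminin- and collagen-rich Reichert's membrane.

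All embryos had the genotype *TnEGP-CreERT2/+; R26Rtdtomato/R26Rtdtomato*, in which a tamoxifen-dependent Cre recombinase is made where the *T* locus is active and switches on a tdTomato reporter for good, so traced and untraced cells came from the same embryos. Mothers received tamoxifen by oral gavage (0.08 mg/bw) at E6+5h for MS-LS embryos dissected at E6+21h, at E6+21h for OB-EB embryos dissected at E7+3h, and at E7+7h for EHF embryos dissected at E7+14h. Embryos were dissociated one by one per the labels, each stage was deposited as 1 library of the Chromium 3′ droplet assay, and the tables do not assign cells to embryos. Stage, litter, tamoxifen interval and library therefore cannot be told apart. With 1 library per stage no test between stages was possible. Every interval given covers counting error only and is a 95% interval, and levels are a gene's UMIs per 1000000 UMIs (CPM), summed over the cells of a group.

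The libraries held 17966956, 12181436 and 20376539 UMIs, with medians of 4251, 2620.5 and 5584 UMIs per cell at MS-LS, OB-EB and EHF. The selected cells had medians of 5395, 3945.5 and 3752 UMIs and summed to 634585, 357304 and 206435 UMIs. Between 12 and 18 barcodes were shared by a pair of libraries, and 0 of them belonged to a selected cell. Mitochondrial transcripts made up 1.59%, 1.95% and 1.12% of the UMIs of the selected cells, against 1.68%, 1.84% and 1.09% in the other cells. Among selected cells whose sex could be called from *Xist* and Y-linked transcripts, 28.6% of 42 were female at MS-LS, 62.8% of 43 at OB-EB and 93.5% of 31 at EHF, against 52.3%, 63.2% and 85.6% of the other cells, and the part of this in the results was not tested.

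The selected cells made up 2.61% (2.12 to 3.19) of the MS-LS library, 2.0% (1.59 to 2.49) of the OB-EB library and 1.14% (0.819 to 1.56) of the EHF library. With every cell thinned to 2000 UMIs before the rule was applied, the shares were 1.35% (0.991 to 1.80), 1.12% (0.774 to 1.57) and 0.534% (0.311 to 0.853), with the EHF share again the lowest but its interval overlapping that of OB-EB. The 22 EHF cells without the parietal genes were 0.630% of their library. Most cells met the rule on few transcripts: 49 of 95, 50 of 80 and 21 of 40 cells held a single *Sox17* UMI, and the highest counts were 7, 3 and 9. *Cer1* and *Foxa2* entered in different proportions. At MS-LS 43 cells had both genes, 48 had *Cer1* alone and 4 had *Foxa2* alone, at OB-EB the numbers were 30, 49 and 1, and at EHF they were 6, 14 and 20. In mesoderm cells of the same libraries, which should lack *Sox17*, a UMI of it was seen in 0.781%, 0% and 0% of cells (median 6359, 3913 and 7962 UMIs). Selected cells were left out of this mesoderm group. The share therefore misses any mesoderm cell that met the rule and cannot measure stray *Sox17* among the selected cells.

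The limit of 3 visceral endoderm genes cut across *Sox17* cells with *Foxa2* or *Cer1*, of which 98, 25 and 24 lay outside it. Visceral endoderm genes that the rule did not use (20 genes, such as *Apoa1*, *Ttr*, *Rbp4* and *Afp*, which encode carriers of lipids, hormones and vitamins) summed to 785 CPM in the MS-LS cells just inside the limit, with 2 of the rule's genes, and to 7130 CPM in those just outside, with 3. At OB-EB the same sums were 914 and 4226 CPM. At EHF they were 2023 CPM inside and 1423 CPM in the single cell just outside, and reached 33075 CPM in the 3 cells with 4 genes. The step thus lay at the limit in the earlier libraries and, judged from a single cell, 1 gene further out at EHF. *Cer1* at MS-LS was 605, 919 and 562 CPM in cells with 0, 1 and 2 of the genes, 956 CPM with 3, and 240 and 53.2 CPM with 4 and 5.

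**Figure D1:**
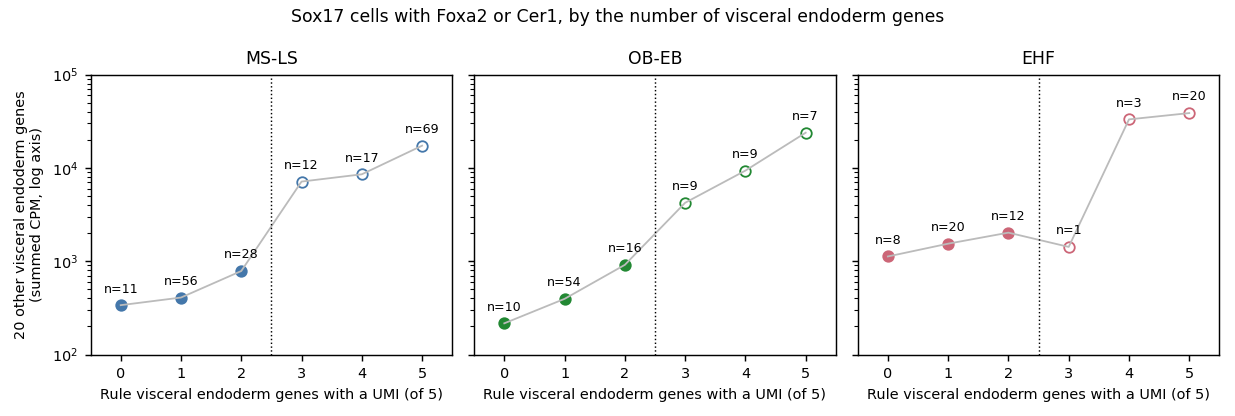
Summed level (CPM, log axis) of 20 visceral endoderm genes that the rule did not use, in *Sox17* cells with *Foxa2* or *Cer1*, by how many of the rule's 5 visceral endoderm genes had a UMI. Filled points are selected cells (fewer than 3 genes) and open points are cells outside the rule. The step between 2 and 3 genes goes from 785 to 7130 CPM at MS-LS and from 914 to 4226 CPM at OB-EB.

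The EHF cells were not uniform. Parietal endoderm genes numbered 12: the basement membrane genes *Lama1*, *Lamb1*, *Lamc1*, *Col4a1*, *Col4a2*, *Nid1* and *Sparc*, and *Plat*, *Thbd*, *Stra6*, *Srgn* and *Fst*. In 94 of 95 MS-LS and 80 of 80 OB-EB cells at most 4 of them had a UMI (the other MS-LS cell had 5 to 7), whereas at EHF 21 cells had at most 4, 1 cell had 7 and 18 cells had 8 to 11. The line between 7 and 8 genes was chosen after the data were seen, and the 12 genes made the split, so their values in the sets are a description. *Lama1* (GRCm38 chromosome 17, 67697259 to 67822647), which encodes laminin alpha 1, had 2 to 10 UMIs per cell (median 6.5) in the 18 cells and 0 in each of the 22. *Sparc*, which encodes a collagen-binding matrix protein, had 3 to 36 UMIs (median 15) in the 18 cells and 0 to 6 (median 2.5) in the 22. *Col4a1*, a collagen IV chain, had 4 to 35 UMIs (median 9.5) against 0 to 3 (median 0). *Lama1* and *Col4a1* counts did not overlap between the sets, and the *Sparc* counts overlapped between 3 and 6 UMIs.

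The rule's own genes differed between the EHF sets, in part by the selection. All 18 cells held 1 or 2 *Foxa2* UMIs and none held *Cer1*, while 20 of the 22 held *Cer1* and 8 held *Foxa2*. A cell without *Cer1* could enter only with *Foxa2*, so the presence of *Foxa2* in all 18 was fixed by the absence of *Cer1*. *Trh* and *Emb* were seen in few of the 18 cells, and the keratin gene *Krt18* in more of them. *Trh*, which encodes the precursor of thyrotropin-releasing hormone, was seen in 18 of the 22 cells (0 to 38 UMIs, median 5.5) and in 1 of the 18. *Emb*, which encodes the glycoprotein embigin, a partner of monocarboxylate transporters, was seen in 20 of 22 (0 to 46 UMIs, median 20.5) and in 2 of 18. *Krt18* was seen in 22 of 22 cells (1 to 49 UMIs, median 15) and in 10 of 18 (0 to 13, median 1). One cell among the 18, the deepest at 7659 UMIs, held both sets of transcripts, with 6 UMIs of *Trh*, 11 of *Emb*, 13 of *Krt18*, 2 of *Lama1* and 6 of *Sparc*. Medians of 6416 UMIs in the 22 cells and 2821.5 in the 18 stood beside these differences.

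**Figure D2:**
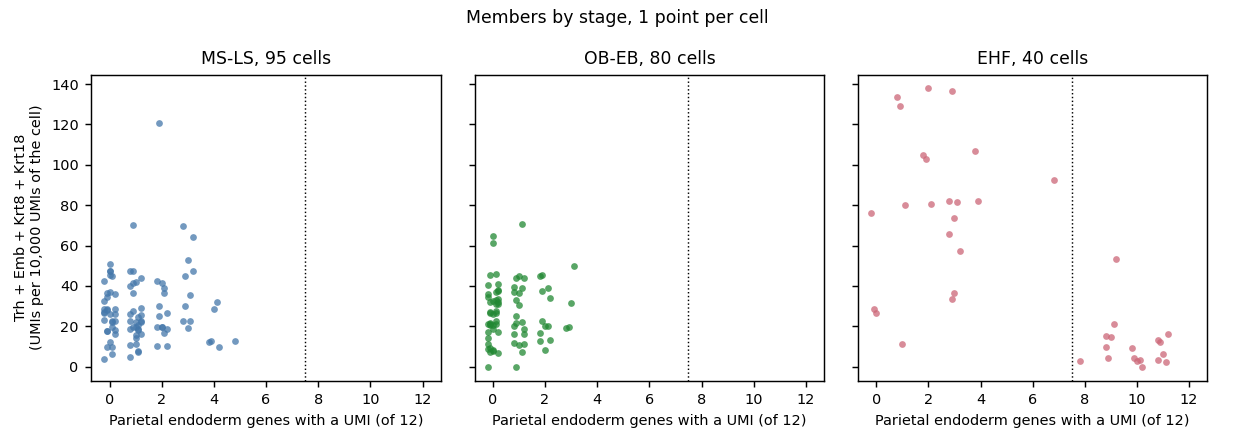
Each point is 1 selected cell. The horizontal axis counts how many of 12 parietal endoderm genes had a UMI, the vertical axis gives the UMIs of *Trh*, *Emb*, *Krt8* and *Krt18* together relative to all UMIs of the cell, and the dotted line lies between 7 and 8 genes. All 95 MS-LS and 80 OB-EB cells lie left of the line, and 18 of the 40 EHF cells lie right of it with few UMIs of the other genes.

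These 18 cells were part of a larger group. In the whole EHF library 68 cells had at least 8 parietal endoderm genes, of which 46 (67.6%) had a UMI of *Sox17*, 21 (30.9%) of *Foxa2*, 18 of both and 0 of *Cer1*. Of 305 genes with at least 100 UMIs over both groups, 0 were more than 2-fold higher and 2 (*Hmgb1* and *Ssr2*) more than 2-fold lower in the 18 cells than in 46 others with at least 8 parietal genes and fewer than 3 of the rule's visceral endoderm genes. Both were named after their values were seen. *Foxa2*, *Sox17* and *Cer1* were too low to enter this comparison, and the detection of *Foxa2* was what selected the 18. *Gata6* and *Gata4*, zinc finger factors of extraembryonic endoderm, were at 353 and 167 CPM in the 18 cells and at 13.1 and 6.55 CPM in the 22. *Sox7*, a relative of *Sox17*, was at 92.9 CPM against 0, and *Fst*, which encodes the activin antagonist follistatin, at 3010 CPM (2564 to 3511) against 13.1 (1.59 to 47.3). *Fst* was thus at 36.2, 101 and 794 CPM across the stages with the 40 cells, and at 13.1 CPM at EHF with the 22.

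At MS-LS the selected cells carried anterior endoderm genes together with genes of the anterior streak. *Cer1* is also transcribed in anterior visceral endoderm, and 48 of the 95 cells entered on it without *Foxa2*. Whether some of the cells were anterior visceral endoderm was not tested. Relative to the other cells of the library, and among genes with a UMI in at least 25% of the selected cells, here and for the later stages, the 10 genes with the largest ratios were *Cer1*, *Hesx1*, *Sox17*, *Lefty1*, *Hhex*, *Shisa2*, *Flt1*, *Lhx1os*, *Sfrp1* and *Fzd5*, of which *Sox17* and *Cer1* were used by the rule. *Hesx1*, a homeobox gene of the anterior endoderm and later the forebrain, was at 77.2 CPM against 4.33 in the other cells. *Lefty1*, which encodes an inhibitor of Nodal, was at 75.6 against 7.27, *Hhex*, a homeobox gene needed for liver and thyroid, at 142 against 14.4, and *Shisa2*, which encodes an inhibitor of Wnt and FGF receptor maturation, at 96.1 against 12.3. Streak and organizer genes were present too, with *Lhx1* at 260 CPM (222 to 303) against 57.5 in the other cells, and *Eomes* at 191 (158 to 228) against 131. *Gsc* was at 93.0 (70.8 to 120) and *Mixl1* at 88.2 (66.7 to 115).

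At OB-EB the leading genes were *Cer1*, *Sox17*, *Prdm1*, *Fzd5*, *Shisa2*, *Hhex*, *Foxa2*, *Sfrp1*, *Dgkk* and *Ap1s3*, of which *Cer1*, *Sox17* and *Foxa2* were used by the rule. *Prdm1*, which encodes the repressor Blimp1, was at 70.0 CPM against 2.96 in the other cells, *Fzd5*, a Wnt receptor gene, at 118 against 7.70 and *Sfrp1*, a secreted Wnt antagonist gene, at 132 against 17.3. *Fzd5*, *Shisa2*, *Hhex* and *Sfrp1* were among the 10 leading genes of both earlier libraries. So were *Cer1* and *Sox17*, whose place was given by the selection.

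At EHF the 22 cells were led by *Cpm*, *Trh*, *Cer1*, *Foxa1*, *Sox17*, *Foxa2*, *Ap1s3*, *Tuft1*, *Apela* and *Gpx2*, of which *Cer1*, *Sox17* and *Foxa2* were used by the rule. *Cpm*, which encodes the membrane enzyme carboxypeptidase M, was at 426 CPM (329 to 543) in the 22 cells, at 9.12 CPM in the other cells of the library, and at 1.58 and 2.80 CPM in the selected cells of MS-LS and OB-EB. *Trh* (GRCm38 chromosome 6, 92242061 to 92244650) was at 1206 CPM (1038 to 1393) in the 22 cells and 26.4 CPM in the others, and *Foxa1*, which encodes a second forkhead factor of gut endoderm, at 91.7 (50.2 to 154) and 3.67. With all 40 cells the list also held *Lama1*, *Nid1*, *Srgn*, *F3* and *Hs3st1*.

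*Sox17*, *Foxa2* and *Cer1* were given by the selection and are only described. With the 22 cells none of them passed 2-fold between stages. *Sox17* (GRCm38 chromosome 1, 4490931 to 4497354) was at 293 CPM (252 to 338), 336 (278 to 402) and 288 (209 to 387) at MS-LS, OB-EB and in the 22 EHF cells, and at 613 (422 to 861) in the 18. *Foxa2* (chromosome 2, 148042877 to 148046969) was at 134 (107 to 166), 101 (70.6 to 139) and 98.3 (55.0 to 162), and at 409 (256 to 619) in the 18, each of which had to hold it. *Cer1* (chromosome 4, 82881751 to 82885148) was at 763 (696 to 834), 924 (827 to 1029) and 485 (381 to 609), with 0 in the 18 cells, which brought the level of all 40 to 358 (281 to 450).

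**Figure D3:**
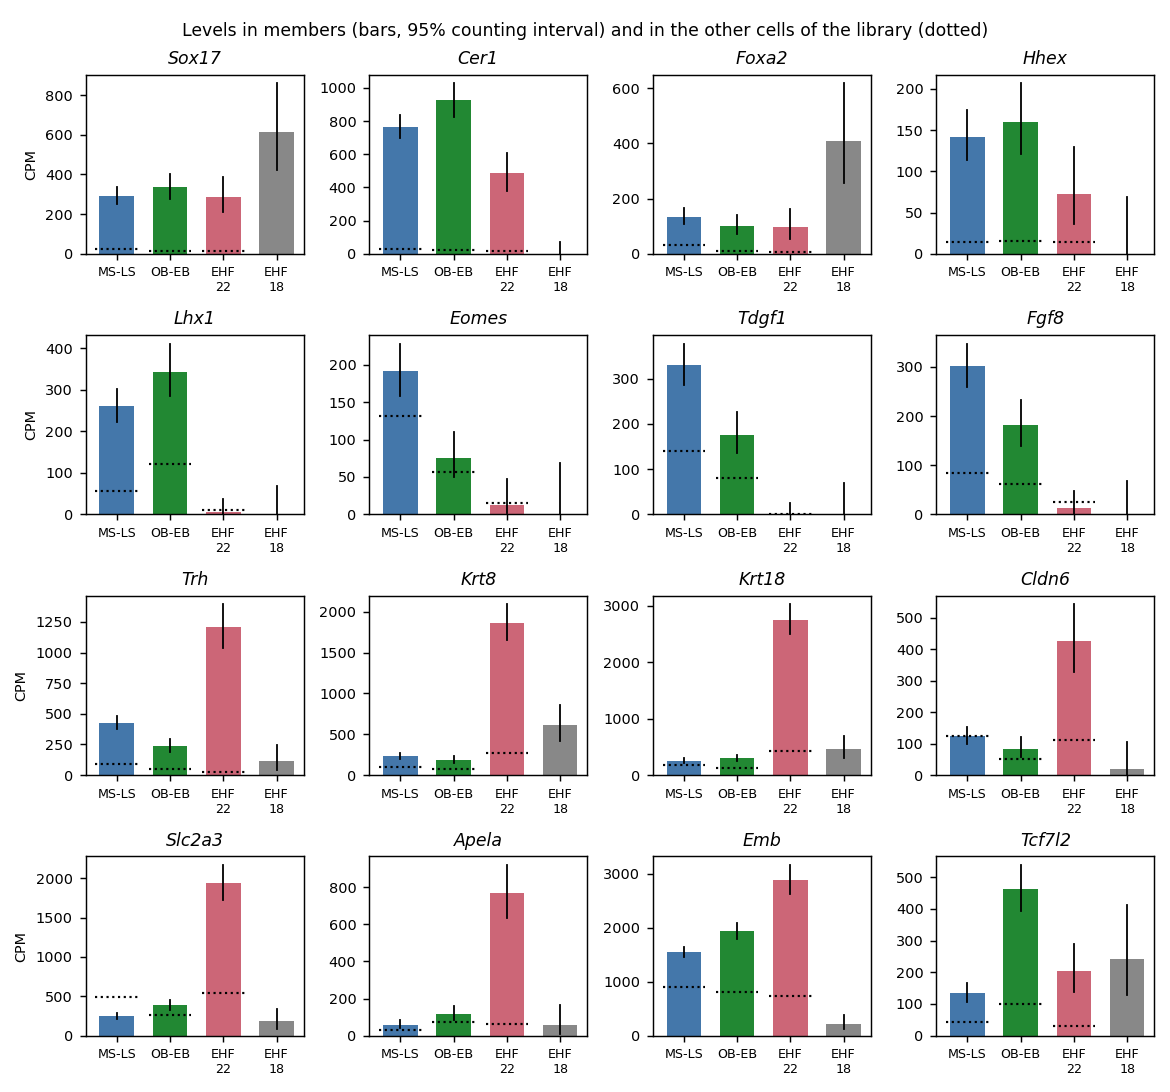
Levels of 16 genes (CPM) in the selected cells of MS-LS and OB-EB and, at EHF, in the 22 cells with fewer than 8 parietal endoderm genes and the 18 with 8 or more. Whiskers are 95% counting intervals and the dotted marks give the other cells of the same library. *Trh*, *Krt8*, *Krt18*, *Cldn6*, *Slc2a3* and *Apela* are highest in the 22 EHF cells, *Lhx1*, *Eomes*, *Tdgf1* and *Fgf8* are near 0 there, and *Cer1* is at 0 in the 18.

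Between stages, a gene was compared when it had at least 100 UMIs over both groups, and it was counted when its CPM differed more than 2-fold. From MS-LS to OB-EB, 61 of 1428 genes (4.27%) were higher and 72 (5.04%) lower. From OB-EB to EHF, 64 of 837 (7.65%) were higher and 99 (11.8%) lower with all 40 EHF cells, and 50 of 760 (6.58%) were higher and 103 (13.6%) lower with the 22. From MS-LS to EHF, 72 of 1248 (5.77%) were higher and 145 (11.6%) lower with 40 cells, and 49 of 1147 (4.27%) were higher and 140 (12.2%) lower with 22. The comparisons share their groups and are not independent of each other. The EHF cells held the fewest UMIs, so a gene high only in them entered at a higher CPM than one high only earlier. *Cpm*, with 65 UMIs in the 22 cells, did not enter, and the counts of higher and lower genes cannot be weighed against each other. The median log2 ratio over all compared genes was −0.16, −0.04 and −0.13 for the 3 pairs of stages with all 40 cells. With the library sizes set by the median ratio instead, the split of higher and lower genes became 92 and 38 for OB-EB over MS-LS and 87 and 111 for EHF over MS-LS.

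A large part of these differences was shared by the rest of the library. Of the 61 genes higher at OB-EB than at MS-LS, 36 (59.0%) were also more than 2-fold higher in all other cells, as were 16 of the 49 (32.7%) higher in the 22 EHF cells than at MS-LS and 27 of the 50 (54.0%) higher than at OB-EB. Of the lower genes, 20 of 72 (27.8%), 70 of 140 (50%) and 58 of 103 (56.3%) were lower in the other cells as well. *Alyref*, an mRNA export factor gene, had a log2 ratio of 3.56 (3.27 to 3.86) for OB-EB over MS-LS in the selected cells and 3.62 in the other cells. *Actb*, which encodes beta-actin, had 2.33 (2.25 to 2.41) and 2.63, and then −3.41 (−3.63 to −3.21) and −3.52 for the 22 EHF cells over OB-EB. *Hes1*, a Notch target, had −1.95 (−2.26 to −1.64) for OB-EB over MS-LS and −1.71 in the other cells. *Hist1h2ap*, whose reads may be split among near-identical histone genes, had 3.48 (2.87 to 4.12) for the 22 EHF cells over MS-LS against 3.92 in the others. Differences of this kind cannot be told apart from differences between the libraries, and ratios below are therefore given with those of the other cells.

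**Figure D4:**
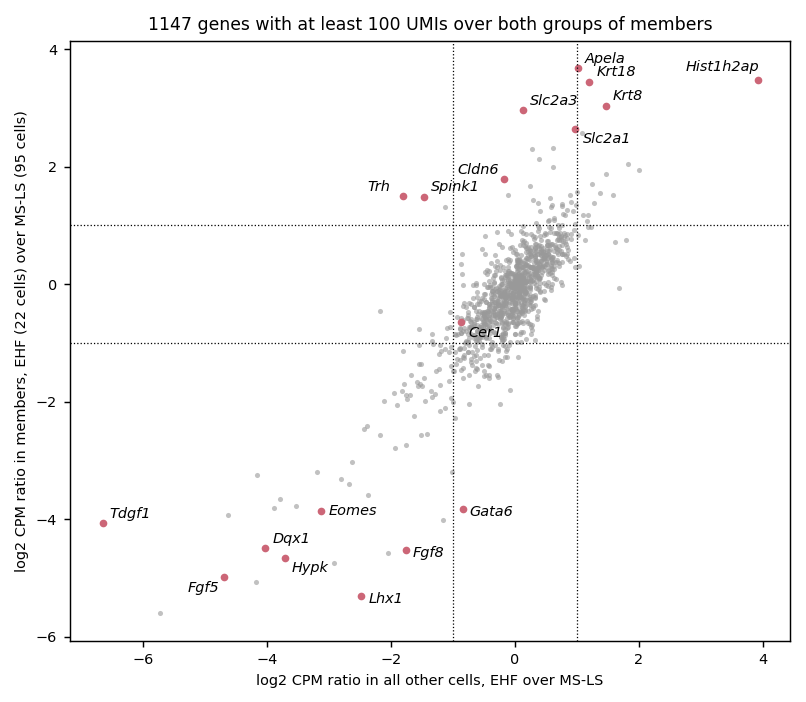
Log2 ratio of EHF over MS-LS for 1147 genes, in the 22 selected EHF cells against the 95 selected MS-LS cells (vertical axis) and in all other cells of the same libraries (horizontal axis). Dotted lines mark 2-fold. Genes near the diagonal differ alike in both, such as *Hist1h2ap* at 3.48 and 3.92, and *Slc2a3* at 2.96 and 0.13 and *Trh* at 1.5 and −1.80 lie above it.

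Of 18 transcription factor genes of endoderm and its precursors, 6 had enough UMIs to compare in the 22 EHF cells and MS-LS. None was more than 2-fold higher and 3 were lower. *Lhx1*, a LIM homeobox gene needed for head formation, was at 260 CPM (222 to 303) at MS-LS, 344 (286 to 411) at OB-EB and 6.55 (0.166 to 36.5) in the 22 cells, where 1 cell held 1 UMI. Its log2 ratio of EHF over MS-LS was −5.31 (−10.62 to −2.81), and −2.48 in the other cells. *Eomes*, the T-box gene that starts endoderm formation in the streak, was at 191, 75.6 and 13.1 CPM, with a ratio of −3.86 (−6.92 to −1.98) and −3.12 in the others. *Gata6* was at 186, 112 and 13.1 CPM, with a ratio of −3.83 (−6.89 to −1.94) against −0.84. With all 40 cells the *Gata6* ratio was −0.87 (−1.61 to −0.19), with *Gata6* at 353 CPM within the 18, and *Hhex* and *Otx2* were counted as lower in its place.

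Other factors of the list differed in their order. *Hhex* was at 142 CPM (114 to 174), 160 (121 to 207) and 72.1 (36.0 to 129), and *Otx2*, a homeobox gene of the anterior embryo, at 188 (155 to 224), 75.6 (49.8 to 110) and 105 (59.9 to 170). The log2 ratio of the 22 cells over MS-LS was −0.98 (−2.03 to −0.07) for *Hhex* and −0.84 (−1.69 to −0.08) for *Otx2*, neither past 2-fold, with 0.03 and −1.33 in the other cells. *Hesx1* was at 77.2 (57.1 to 102), 11.2 (3.05 to 28.7) and 85.2 (45.4 to 146), lowest at OB-EB. *Foxa1* was at 26.8 (15.6 to 42.9), 30.8 (15.4 to 55.1) and 91.7 (50.2 to 154). *Gsc* went from 93.0 and 50.4 CPM to 6.55 (0.166 to 36.5), and *Mixl1* from 88.2 and 58.8 CPM to 0 (up to 24.2). These last 4 genes had too few UMIs to enter the count.

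*Tcf7l2*, which encodes a DNA-binding effector of Wnt signalling, was the factor that stood out between the earlier stages. It had 0 to 6 UMIs per cell (median 1) at MS-LS and 0 to 9 (median 1) at OB-EB, and was seen in 53.7% and 68.8% of cells. Its level was 134 CPM (107 to 166), 462 (394 to 538) and 203 (138 to 288) at MS-LS, OB-EB and in the 22 EHF cells. The log2 ratio of OB-EB over MS-LS was 1.79 (1.40 to 2.18), against 1.22 in the other cells, and that of the 22 cells over OB-EB was −1.18 (−1.79 to −0.62), against −1.75. Of the 6 factors compared between the earlier stages, *Tcf7l2* was the 1 higher past 2-fold and *Eomes* and *Otx2* were lower, with log2 ratios of −1.34 and −1.31 against −1.20 and −0.59 in the other cells.

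Of 17 Nodal pathway genes, *Tdgf1* was the only 1 with enough UMIs to compare. *Tdgf1*, which encodes the Nodal co-receptor Cripto, was at 329 CPM (286 to 377) at MS-LS, 176 (135 to 226) at OB-EB and 0 in the 22 and in the 18 EHF cells. With the group counted at its floor of 3 UMIs, the log2 ratio of the 22 cells over MS-LS was at most −4.07, and the other cells of the library went from 140 to 1.39 CPM. *Lefty1* was at 75.6 CPM (55.8 to 100), 2.80 (0.0709 to 15.6) and 0, *Lefty2*, its neighbour in function, at 34.7 (21.7 to 52.5), 84.0 (56.6 to 120) and 0, and *Skil*, a repressor of the pathway, at 74.1 (54.4 to 98.5), 137 (101 to 181) and 6.55 (0.166 to 36.5). The co-receptor gene *Cfc1* remained, at 85.1 (63.9 to 111), 89.6 (61.3 to 126) and 39.3 (14.4 to 85.6). *Nodal* itself had 14.2 CPM (6.49 to 26.9) at MS-LS and no UMI later.

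Of 18 epithelial genes 6 could be compared between the 22 cells and MS-LS, and 3 were more than 2-fold higher and 0 lower. *Krt18* (GRCm38 chromosome 15, 102028180 to 102032027) had 0 to 10 UMIs per cell (median 1) at MS-LS, 0 to 7 (median 1) at OB-EB and 1 to 49 (median 15) in the 22 cells. Its level was 251, 297 and 2746 CPM (2489 to 3021), and the log2 ratio over MS-LS was 3.45 (3.19 to 3.73) against 1.2 in the other cells. *Krt8*, which encodes its partner in simple epithelia, was at 227, 188 and 1861 CPM (1651 to 2090), with a ratio of 3.04 (2.74 to 3.34) against 1.47. *Cldn6*, a tight junction gene, was at 123, 84.0 and 426 CPM (329 to 543), with 1.79 (1.30 to 2.29) against −0.17.

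The adhesion genes *Epcam* and *Cdh1* did not pass 2-fold. *Epcam* was at 249 CPM (212 to 291), 188 (145 to 238) and 354 (266 to 462) and *Cdh1*, which encodes E-cadherin, at 124 (98.6 to 155), 84.0 (56.6 to 120) and 157 (101 to 234). Their log2 ratios of the 22 cells over MS-LS were 0.51 (0.03 to 0.96) and 0.34 (−0.39 to 1.01), where the other cells had −0.85 and −0.86. *Cdh2*, which encodes N-cadherin, was at 115, 199 and 39.3 CPM. *Cldn7* was at 69.3 (50.4 to 93.1), 50.4 (29.9 to 79.6) and 190 (127 to 273), and *Krt19* at 1.58, 0 and 52.4 (22.6 to 103). The tight junction and keratin genes were low in the 18 cells, with *Cldn6* at 18.6 CPM and *Epcam* at 55.7, apart from *Krt8* at 613 (422 to 861) and *Krt18* at 464 (301 to 686).

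Among 20 foregut and anterior endoderm genes, *Trh* was the 1 higher past 2-fold in the 22 cells, of 3 compared. Its UMIs per cell ran from 0 to 20 (median 1) at MS-LS, 0 to 5 (median 0) at OB-EB and 0 to 38 (median 5.5) in the 22 cells. The level was 425 CPM (376 to 479), 238 (190 to 294) and 1206 (1038 to 1393). The log2 ratio of the 22 cells was 1.5 (1.22 to 1.78) over MS-LS and 2.34 (1.96 to 2.73) over OB-EB, where the other cells had −1.80 and −0.91. In mesoderm cells, as a measure of free RNA, a *Trh* UMI was seen in 13.3%, 1.27% and 5.63% of cells, against 72.6%, 48.8% and 81.8% of the selected cells (the 22 at EHF). The 5 cells with most *Trh* held 23.7% of its UMIs among 95 cells, 27.1% among 80 and 62.5% among the 22. As 5 cells are a larger part of 22, these shares cannot be compared between stages. Much of the EHF level came from these 5 cells, although 81.8% of the 22 held a UMI.

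Other genes of the foregut list were below the limit for comparison. *Isl1*, a LIM homeobox gene of pharyngeal endoderm and the second heart field, had no UMI at MS-LS (up to 5.81 CPM), 14.0 CPM (4.54 to 32.7) at OB-EB and 78.6 (40.6 to 137) in the 22 cells. *Nkx2-1*, *Nkx2-3*, *Pyy*, *Nepn* and *Ccl21a*, which mark later foregut, had no UMI in selected cells of any stage. Of the 16 midgut and hindgut genes, *Fgf8* and *Cyp26a1* had enough UMIs to compare, and both were lower in the 22 cells than at MS-LS. *Cyp26a1*, which encodes an enzyme that degrades retinoic acid, was at 159, 61.6 and 72.1 CPM, with a log2 ratio of −1.14 (−2.19 to −0.24) against −1.80 in the other cells. *Cdx2*, the caudal homeobox gene of the hindgut, was at 1.58, 2.80 and 32.8 CPM (10.6 to 76.5). *Hoxb1* was at 6.55 CPM (0.166 to 36.5) in the 22 cells, against 53.8 CPM in the other cells of the EHF library.

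Secreted antagonists of Wnt and BMP were present at each stage, with 1 passing 2-fold between MS-LS and OB-EB and none of the 14 deep enough to compare in the 22 EHF cells. *Shisa2* was at 96.1 CPM (73.5 to 123), 193 (150 to 244) and 144 (90.3 to 218), with a log2 ratio of 1.01 (0.49 to 1.53) for OB-EB over MS-LS and 0.36 in the other cells. *Sfrp1* was at 120 (94.4 to 150), 132 (96.7 to 175) and 72.1 (36.0 to 129), and *Dkk1*, which encodes an antagonist of Wnt co-receptors, at 123 (97.2 to 153), 64.4 (40.8 to 96.6) and 91.7 (50.2 to 154). *Frzb*, another secreted Wnt antagonist gene, was at 67.8, 148 and 65.5 CPM, and *Bambi*, a decoy receptor gene, at 74.1, 25.2 and 138 CPM. The intervals of neighbouring stages overlapped for *Sfrp1* throughout.

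Among 21 ligands and guidance genes, 4 could be compared between the 22 cells and MS-LS, with *Apela* higher and *Fgf5* and *Fgf8* lower. *Apela*, which encodes a peptide ligand of the apelin receptor that attracts mesendoderm and heart precursors, was at 59.9 CPM (42.4 to 82.2), 118 (84.7 to 159) and 767 (634 to 919). Its log2 ratio over MS-LS was 3.68 (3.14 to 4.25) against 1.02 in the other cells, and over OB-EB 2.71 (2.19 to 3.25) against −0.23. It was seen in 16 of the 22 cells and 1 of the 18, and 5 cells held 60.7% of its UMIs in the 22. A UMI of *Apela* was seen in 31.0% of EHF mesoderm cells, and in 10.0% once these were thinned to 2000 UMIs, against 61.9% of the thinned selected cells. *Fgf8* was at 301 (260 to 347), 182 (140 to 232) and 13.1 CPM (1.59 to 47.3), a log2 ratio of −4.52 (−7.58 to −2.65) against −1.76. *Fgf5* was at 208, 235 and 6.55 CPM, a ratio of −4.99 (−10.30 to −2.49) against −4.69, and so as low in the other cells.

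*Emb*, the fourth gene compared, was the most evenly spread. It had a UMI in 98.9%, 92.5% and 90.9% of the selected cells (the 22 at EHF) and medians of 9, 8 and 20.5 UMIs per cell. Its level was 1549 CPM (1454 to 1649), 1940 (1798 to 2089) and 2877 (2614 to 3159), with a log2 ratio of 0.89 (0.73 to 1.06) over MS-LS and −0.28 in the other cells. Visceral endoderm cells had 2482, 2661 and 2910 CPM, and extraembryonic ectoderm cells 167, 143 and 170 CPM. *Cxcr4*, the chemokine receptor gene used to sort definitive endoderm, was at 23.6, 70.0 and 6.55 CPM, and *Pdgfa* at 26.8, 53.2 and 197 CPM. *Bmp2* was at 72.5, 89.6 and 59.0 CPM, against 27.4, 26.2 and 14.2 CPM in the other cells. *Shh* and *Ihh* had no UMI in the selected cells of any stage.

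Genes for transporters of glucose and lactate were higher at EHF. Of 17 glycolysis genes 10 were compared between the 22 cells and MS-LS, and the 3 higher past 2-fold were the transporter genes *Slc2a1*, *Slc2a3* and *Slc16a1*. *Slc2a3*, which encodes glucose transporter GLUT3, had 0 to 11 UMIs per cell (median 1) at MS-LS, 0 to 9 (median 1) at OB-EB and 0 to 59 (median 8) in the 22 cells. It was at 249, 386 and 1933 CPM (1719 to 2167), a log2 ratio over MS-LS of 2.96 (2.67 to 3.24) against 0.13 in the other cells. In the 22, 5 cells held 57.3% of its UMIs, and 9 of 22 exceeded every mesoderm and extraembryonic ectoderm cell of the library. *Slc2a1* (GLUT1) was at 123, 81.2 and 773 CPM (640 to 926), a ratio of 2.65 (2.23 to 3.08) against 0.98. *Slc16a1*, which encodes the monocarboxylate transporter MCT1, was at 378, 560 and 944 CPM (796 to 1111), a ratio of 1.32 (1.01 to 1.62) against −1.12. *Ldha*, the lactate dehydrogenase gene, was at 1883, 1066 and 2202 CPM, with a ratio of 0.23 (0.05 to 0.40) against 0.54, and *Tpi1*, a gene of the pathway's middle, at 277, 129 and 406 CPM.

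The epiblast list went the other way. Of its 10 genes 3 were compared between the 22 cells and MS-LS, *Fgf5*, *Pou5f1* and *Dnmt3b*, and 3 were lower. *Pou5f1*, the pluripotency factor gene, was at 287 CPM, 179 and 59.0, with a log2 ratio of −2.28 (−3.43 to −1.33) against −0.97 in the other cells, and *Dnmt3b*, a DNA methyltransferase gene, at 498, 647 and 190 CPM, with −1.39 (−1.99 to −0.84) against −1.02. At least 3 epiblast markers were seen in 46 of 95, 23 of 80 and 2 of the 22 cells (48.4%, 28.7% and 9.09%, against 52.8%, 36.4% and 30.1% of the other cells). Of 6 cell cycle genes compared, *Pcna* was lower (−1.70, −2.74 to −0.82, against −1.52 in the other cells) and the others were within 2-fold. No cholesterol synthesis gene reached 100 UMIs.

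Beyond the lists, the genes with the largest ratios of the 22 cells over MS-LS included *Tpm1*, which encodes tropomyosin, at 2.58 (2.03 to 3.14) against 1.09 in the other cells. The imprinted RNA gene *H19* had 2.30 (1.76 to 2.84) against 0.28, and *Upp1*, which encodes uridine phosphorylase, −4.02 (−7.08 to −2.14) against −1.16. *Loxl2*, *Haus8*, *Hypk* and *Dqx1* were also among the 10 lowest, with −4.17, −2.91, −3.71 and −4.03 in the other cells.

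Set against visceral endoderm cells of the same library (at least 3 of the rule's 5 genes, 720, 368 and 386 cells), the selected cells had fewer genes higher than lower. Genes entered with at least 100 UMIs over both groups, which the more numerous visceral endoderm cells mostly supplied. A gene low in those cells had to reach a higher CPM in the selected cells to enter. The excess of lower genes therefore cannot be read as a property of the selected cells. At MS-LS 157 of 4837 genes (3.25%) were more than 2-fold higher and 849 (17.6%) lower, at OB-EB 115 of 2371 (4.85%) and 327 (13.8%), and at EHF 187 of 3855 (4.85%) and 596 (15.5%) with 40 cells. With the 22 EHF cells it was 188 of 3784 (4.97%) and 725 (19.2%). The rule used 8 genes of this contrast and the groups were cut by it, so these are descriptions. At MS-LS the highest ratios were those of *Cer1*, *Upp1*, *Tdgf1*, *Gsc*, *Lhx1*, *Fgf8*, *Cald1*, *Hhex*, *Otx2* and *Shisa2*, for example *Tdgf1* at 329 against 34.7 CPM and *Gsc* at 93.0 against 12. At OB-EB they included *Fgf5* (235 against 28.5 CPM), *Lhx1* (344 against 43.1) and *Cdh2* (199 against 32.2). In the 22 EHF cells they were led by *Apela* (767 against 28.1 CPM), *Trh* (1206 against 48.0) and *Cpm* (426 against 21.3).

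The 20 visceral endoderm genes outside the rule summed to 537 CPM (482 to 598) at MS-LS, 493 (422 to 571) at OB-EB and 1546 (1355 to 1757) in the 22 EHF cells, against 3920, 2474 and 4884 CPM in the other cells. The 1 gene of this list with enough UMIs to compare between stages was *Apoe*, a lipoprotein gene, at 178, 171 and 780 CPM, with a log2 ratio of the 22 cells over MS-LS of 2.13 (1.75 to 2.51) against 0.40 in the other cells. *Apoa1*, an apolipoprotein gene that the rule did not use, was at 50.4 CPM in the OB-EB cells and 3369 in the visceral endoderm cells, and at 59.0 and 5711 in the 22 EHF cells and the EHF visceral endoderm cells. *Rbp4*, which encodes the retinol carrier, was at 45.9 against 4429 CPM at EHF, and *Ttr*, the thyroid hormone carrier gene, at 67.2 against 4673 at OB-EB. *S100g* had no UMI in the 22 cells and 927 CPM in visceral endoderm cells, while the 18 cells had 985.

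*Spink1*, the secreted protease inhibitor gene that is 1 of the rule's 5, did not follow the other 4. It was at 2578, 4304 and 7254 CPM in the selected cells (the 22 at EHF), against 20626, 31597 and 11747 CPM in visceral endoderm cells and 237, 312 and 80.4 CPM in mesoderm cells. A *Spink1* UMI was seen in 84.2%, 86.2% and 86.4% of the selected cells (the 22 at EHF), in 78.9%, 68.4% and 47.9% of mesoderm cells and in 73.5%, 83.3% and 40.2% of extraembryonic ectoderm cells (median 6639, 5472 and 7632.5 UMIs). The share was near that of cells that should lack the gene at MS-LS and OB-EB, and above it in the 22 EHF cells. In counts per cell, 9 of 95, 20 of 80 and 16 of the 22 cells held more *Spink1* UMIs than any mesoderm or extraembryonic ectoderm cell of their library, and the cell with most held 200, 361 and 219. The 5 cells with most *Spink1* held 50.1% of the UMIs at MS-LS, 60.2% at OB-EB and 63.7% in the 22 cells, and the 18 cells, of which 27.8% had a UMI, held 0 to 2 each.

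The selected cells were also set against cells of the same library with UMIs of *Foxa2* and *T* and none of *Sox17*. There were 54, 33 and 38 such cells (median 6972.5, 3971 and 4540.5 UMIs), which include precursors of the node and notochord. At the mid to late streak stages the paper found both proteins together in streak cells, in definitive endoderm and near the forming node. It proposes that such anterior streak cells contribute to the ventricles of the heart. Fewer genes differed than against visceral endoderm cells, but fewer had enough UMIs to enter. The shares rest on different sets of genes and cannot show which cells were closer to the selected cells. At MS-LS 15 of 1523 genes (0.985%) were higher in the selected cells and 4 (0.263%) lower, at OB-EB 12 of 734 (1.63%) and 2 (0.272%), and at EHF 20 of 610 (3.28%) and 12 (1.97%) with 40 cells, or 11 of 515 (2.14%) and 12 (2.33%) with 22. At MS-LS *Cer1* (763 against 147 CPM), *Krt8* (227 against 82.8), *Hhex* (142 against 52.9), *Tcf7l2* (134 against 50.6) and *Trh* (425 against 166) were higher, and *Fst* (36.2 against 212) and *T* (55.2 against 205) lower. *T*, *Sox17*, *Foxa2* and *Cer1* were used to define these groups, so their differences are fixed by the selection. At OB-EB *Amot*, which encodes angiomotin, a Hippo pathway scaffold at cell junctions, was at 1430 against 216 CPM and *Slc16a1* at 560 against 126, and *Amot* itself had a log2 ratio of 1.69 (1.47 to 1.90) for OB-EB over MS-LS against 0.01 in the other cells. In the 22 EHF cells *Slc2a3* was at 1933 against 368 CPM and *Apela* at 767 against 76.6. *Fam183b*, a gene of ciliated cells, had no UMI in the 22 cells and 531 CPM in the *Foxa2* and *T* cells. *Amot* and *Fam183b* were named after their values were seen.

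Markers of other cell types were counted in the selected cells, all 40 at EHF. At least 3 of 15 endothelial markers were seen in 2, 3 and 0 cells (2.11%, 3.75% and 0%, against 2.99%, 2.63% and 8.16% of the other cells), and at least 3 of 12 extraembryonic ectoderm markers in 3, 0 and 0 (3.16%, 0% and 0%, against 9.04%, 1.71% and 14.3%). At least 3 of 15 node and notochord markers were seen in 4, 1 and 2 cells (4.21%, 1.25% and 9.09% of the 22, against 0.960%, 1.10% and 2.84%). Nascent mesoderm markers, at least 3 of 11, were seen in 8, 7 and 0 cells (8.42%, 8.75% and 0%, against 8.08%, 6.85% and 12.8%). The part of these cells in the results was not tested beyond leaving out those with other markers. No cell had 3 of 10 erythroid markers. The endothelial markers summed to 93.0, 98.0 and 33.9 CPM, against 156, 175 and 237 CPM in the other cells, and *Pecam1*, *Cdh5*, *Tal1*, *Esam*, *Sox18* and *Icam2* had no UMI in any selected cell. Erythroid markers summed to 6.30, 11.2 and 43.6 CPM, against 5.71, 4.57 and 313.

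The reporter marked few of the selected cells, and few of the other cells at MS-LS and OB-EB. The paper reports that too few tdTomato reads were recovered at the earlier stages to identify labelled cells there. A tdTomato UMI was seen in 2 of 95 cells at MS-LS (2.11%, 0.256 to 7.40), 3 of 80 at OB-EB (3.75%, 0.780 to 10.6) and 0 of 40 at EHF, where the exact interval reaches 8.81% and a floor of 3 cells would be 7.5%. The other cells of the libraries had 2.06% (1.62 to 2.59), 3.30% (2.76 to 3.90) and 11.7% (10.6 to 12.8). The intervals of the selected cells include these shares at MS-LS and OB-EB, so no difference was detectable there. At EHF 11.7% lies above the interval of the 40 cells and within that of the 22. In mesoderm cells, many of which descend from *T*-expressing streak cells, the shares were 6.25% (2.74 to 11.9), 10.1% (4.47 to 19.0) and 53.5% (41.3 to 65.5), and in the *Foxa2* and *T* cells 0%, 3.03% and 31.6% (17.5 to 48.7). Visceral endoderm cells, which do not pass through the streak, had 0.694%, 1.36% and 2.07%, and extraembryonic ectoderm cells 0.855%, 0% and 1.63%. With cells thinned to 2000 UMIs, the selected cells had 1.08%, 0% and 0%, and mesoderm and *Foxa2* and *T* cells at EHF 20% and 25.7%. The intervals of the selected cells include the shares of the visceral endoderm cells at every stage, so labelling above that background was not detectable with these numbers of cells. At EHF the interval of the 40 cells lies below those of mesoderm and of *Foxa2* and *T* cells. For the 22 cells alone it reaches 15.4% (a floor of 3 cells would be 13.6%), and 16.1% with thinned cells, where it overlaps the intervals of mesoderm (11.4 to 31.3) and of *Foxa2* and *T* cells (12.5 to 43.3).

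**Figure D5:**
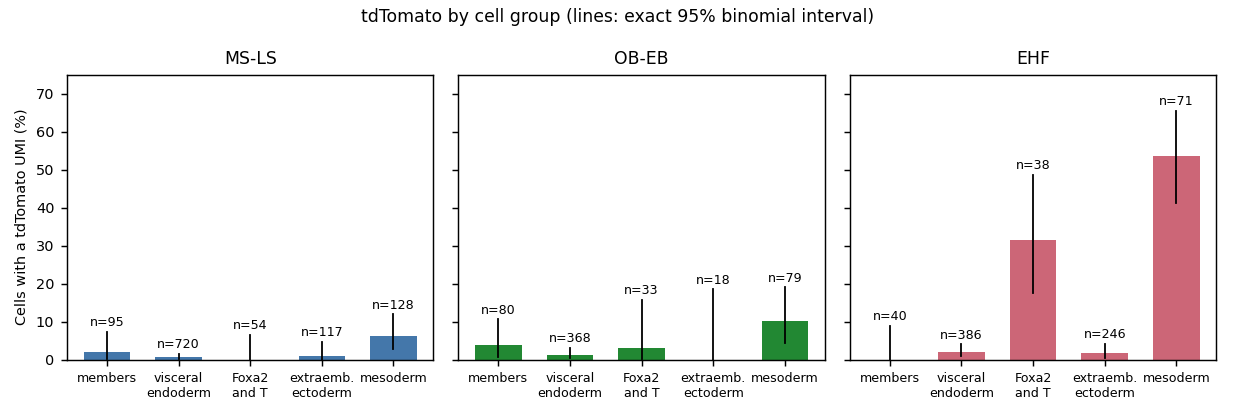
Share of cells (%) with at least 1 tdTomato UMI in the selected cells and in 4 other groups of the same library, by stage, with exact binomial 95% intervals. At EHF 0 of 40 selected cells, 31.6% of *Foxa2* and *T* cells and 53.5% of mesoderm cells had a UMI.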

How the data were processed

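The authors aligned reads of the Chromium 3′ libraries and counted UMIs with Cell Ranger 3.0.2 on GRCm38 plus the reporter vector's sequence, removed cells under 500 genes or 1000 UMIs or with high mitochondrial shares, and deposited whole-number counts per gene and cell (R 3.6.1 and Seurat 3 are also in the submitters' notes). The 2 EHF tables held equal counts in all 65128160 places, under other names for 21 genes, and were used once. Here UMIs were summed over cells (Python 3.11.15, scipy 1.17.1), with exact Poisson, Clopper-Pearson and conditional binomial 95% intervals and a floor of 3 UMIs for groups at 0. Steps were tested on simulated data. Visceral endoderm cells held at least 3 of the rule's 5 genes. Mesoderm and extraembryonic ectoderm cells held at least 3 of 6 and of 5 markers and were neither visceral endoderm nor selected cells. Doublets were kept: Scrublet (scanpy 1.11.5) marked 6, 0 and 13 cells, so the 5% with the highest scores were left out as an alternative. Named genes came from 20 lists, the 10 largest ratios in each direction per pair of stages, and the 10 leading genes over other cells and over visceral endoderm cells. Mitochondrial, ribosomal, sex-linked and vector features were not ranked. The cells, the rule and the lists were chosen with earlier results of these data known. Positions are from GENCODE for GRCm38.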

Additional observations from a re-analysis of the deposited data

How the results depend on the processing

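No paired analysis was possible because each stage is 1 library. Requiring 2 *Sox17* UMIs gave shares of 1.27%, 0.751% and 0.544% and 66, 57 and 117 genes past 2-fold (OB-EB over MS-LS, EHF over OB-EB, EHF over MS-LS), in place of 133, 163 and 217. Allowing no visceral endoderm gene gave 0.303%, 0.25% and 0.229% and 6, 16 and 25 genes, from few cells. Requiring *Foxa2* gave 1.29%, 0.776% and 0.744% and 75 genes for EHF over OB-EB. Thinning before the rule gave 1.35%, 1.12% and 0.534% and 55, 53 and 73 genes. A minimum of 50 UMIs gave 286, 394 and 440 genes, and of 1 UMI 2592, 3517 and 3927. Without the cells with parietal genes, an alternative added after the data were seen, the EHF share was 0.630%. With 2 tdTomato UMIs the labelled share was 0% at MS-LS and OB-EB, and thinned it was 0% at OB-EB. The main counts of genes and the named ratios in this section used all 40 EHF cells. Ratios of the 22 cells entered only as the alternative without parietal genes, and were not recomputed under the other alternatives. Of 1957 values of 221 named ratios, 1779 stayed, 176 moved and 2 turned: *Actb* for EHF over MS-LS was 0.18 with no visceral endoderm gene allowed, and *Spink1* −0.26 by the mean of each cell's CPM. The cause was not tested. Leaving out doubtful cells (high Scrublet scores, low UMIs, high mitochondrial share, other markers) moved no share beyond its interval and no count of genes by over 1.5 times. *Sox17* and *Foxa2* are detected at 1 or 2 UMIs, so the number of cells found depends on depth, and 40 cells limit every EHF value.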
